A study of Mus musculus with 13 samples.

Results

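The genes described here are 37 markers of the cell types that mouse embryonic stem (ES) cells do not normally form while they self-renew. They comprise 10 markers of primitive endoderm, 8 of trophectoderm, 9 of mesendoderm and 10 of neural cells and neural crest. The genes were chosen by symbol in a table of read counts for 24079 genes, and 29 of the 37 had at least 30 reads summed over 6 RNA-seq libraries. The symbols name known lineage markers, but the list was drawn up with earlier results of these data known, so the counts of called genes below describe the list and are not independent evidence. The 8 genes below the minimum were not tested.

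CGR8, a mouse ES cell line that grows without feeder cells, was kept on gelatin with serum and LIF, the cytokine that maintains self-renewal. Asynchronous cells received either 0.5% DMSO as the control or 10 μM PhenDC3, a compound that binds and stabilizes G-quadruplexes (G4s, 4-stranded folds of G-rich DNA), in the same 0.5% DMSO, for 48 h. Poly(A) RNA was sequenced from 3 replicates of each condition. Replication origins were mapped by sequencing of short nascent DNA strands that carry an RNA primer (SNS-seq), in 3 control and 2 PhenDC3 replicates. The labels name no genetic change and no differentiation protocol for either condition. Nothing in the labels says whether the RNA replicates came from separate cultures, so the p-values measure the spread between these libraries, which may be technical.

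In the early mouse embryo the inner cell mass separates into epiblast, the source of ES cells, and primitive endoderm, which lines the yolk sac, while the outer cells become trophectoderm, the precursor of the placenta. At gastrulation the epiblast gives rise to mesendoderm in the primitive streak and to neural ectoderm. Each of these steps is run by transcription factors that serve as markers, and in self-renewing ES cultures their genes are typically silent, low, or active in a small share of cells. In RNA from whole cultures, fewer cells of a type and less RNA per cell cannot be told apart.

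The RNA-seq libraries held 22232014 to 29486502 reads counted on genes, and 13972 genes had enough reads to be tested. Pluripotency genes, which define the labelled cell type, were high in both conditions, and the levels of 12 of them summed to between 6792 and 7168 CPM (read counts scaled to a common library size, by relative log expression) in control libraries and between 9000 and 10050 CPM with PhenDC3. A list of 10 fibroblast markers summed to 8.95 to 9.80 CPM in control and 7.36 to 9.77 CPM in PhenDC3 libraries. Dcn, Lum and Fap were at 0 in all 6, while the rest of the list had some reads. In that list 5 genes were tested and 1, Thy1, which ES cells can also express, was lower with PhenDC3, with a log2 fold change of -1.31. Of all genes tested, 18.7% were lower. The other 4 tested fibroblast genes had log2 fold changes above 0 and were not called. The largest was that of Col1a2, at 1.64 (edgeR, adjusted p = 0.105), which passed with a term for the replicate number (adjusted p = 0.00761).

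Since PhenDC3 binds G4s, the sequence at the start of the markers' genes is shown first. Each window runs from 250 bases before to 50 bases after a transcription start site (TSS) annotated by RefSeq on GRCm38.p6, the assembly also called mm10, and is written along the strand of the gene. Capitals mark a G4 motif, defined as 4 runs of GGG or longer separated by loops of 1 to 7 bases of any kind, or the same with CCC where the G-rich strand is the opposite one. Gata3 and Gsc are printed because they had the largest rises of the 27 tested markers, Krt8 and Krt18 because they are neighbours on chromosome 15, 23.9 kb apart, whose levels differed by similar folds, and Pax6 because it was the one member that fell. The window of Gata3 lies at chr2:9878551-9878850 on the minus strand, that of Gsc at chr12:104473187-104473486 on the minus strand, that of Krt8 at chr15:102004293-102004592 on the minus strand, that of Krt18 at chr15:102027966-102028265 on the plus strand, and the upstream window of Pax6 at chr2:105668646-105668945 on the plus strand.
Gata3: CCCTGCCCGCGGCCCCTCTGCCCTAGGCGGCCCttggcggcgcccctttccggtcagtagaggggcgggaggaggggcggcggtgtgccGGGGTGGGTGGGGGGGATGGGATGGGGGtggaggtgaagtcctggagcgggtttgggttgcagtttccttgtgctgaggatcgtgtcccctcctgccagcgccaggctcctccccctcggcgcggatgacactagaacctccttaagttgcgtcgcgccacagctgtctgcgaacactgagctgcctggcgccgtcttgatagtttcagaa
Gsc: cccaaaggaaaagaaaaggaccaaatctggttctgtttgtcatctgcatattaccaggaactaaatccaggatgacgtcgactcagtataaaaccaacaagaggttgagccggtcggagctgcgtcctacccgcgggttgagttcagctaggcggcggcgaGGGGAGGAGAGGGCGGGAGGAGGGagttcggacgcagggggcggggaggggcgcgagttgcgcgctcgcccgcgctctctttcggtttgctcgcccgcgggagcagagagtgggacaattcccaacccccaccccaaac
Krt8: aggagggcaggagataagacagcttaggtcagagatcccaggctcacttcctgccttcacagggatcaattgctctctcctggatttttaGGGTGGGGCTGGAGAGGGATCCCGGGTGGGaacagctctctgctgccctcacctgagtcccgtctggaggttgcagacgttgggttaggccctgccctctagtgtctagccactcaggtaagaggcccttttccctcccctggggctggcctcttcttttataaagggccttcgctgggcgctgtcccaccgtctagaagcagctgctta
Krt18: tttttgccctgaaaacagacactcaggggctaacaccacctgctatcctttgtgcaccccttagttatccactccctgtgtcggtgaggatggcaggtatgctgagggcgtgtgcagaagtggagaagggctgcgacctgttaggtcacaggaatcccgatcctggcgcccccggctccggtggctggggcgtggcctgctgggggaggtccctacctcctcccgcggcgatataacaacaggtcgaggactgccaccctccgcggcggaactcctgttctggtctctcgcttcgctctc
Pax6: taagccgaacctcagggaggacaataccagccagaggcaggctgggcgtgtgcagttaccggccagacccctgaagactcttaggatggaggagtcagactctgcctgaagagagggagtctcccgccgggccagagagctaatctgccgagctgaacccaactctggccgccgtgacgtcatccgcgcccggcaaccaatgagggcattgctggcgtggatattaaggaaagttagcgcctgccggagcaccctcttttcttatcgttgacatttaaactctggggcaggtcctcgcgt

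The Gata3 window held 2 motifs, one on each strand, and those of Gsc and Krt8 held 1 each on the strand of the gene. No motif was found in the windows of Krt18 or Pax6, so the neighbouring keratin genes differed in this respect. Windows were at hand for 21 of the 29 genes, and 11 of the 21 (52.4%) had a motif in at least 1 window. Among all tested genes with a window the share was 31.9% of 11044, and counted by window it was 18.6% of 32851. The markers with a motif were Pdgfra, Foxa2, Hnf4a, Gata3, Krt8, T, Gsc, Wnt3, Kdr, Sox1 and Tubb3. By the test described below, 5 of the 9 tested genes with a motif and 2 of the 10 without one, Krt18 and Nes, were higher with PhenDC3, where 18% of all genes tested were. Of those with a motif, Gata3 and Gsc could be tested only with the help of their PhenDC3 libraries, and T and Wnt3 were not tested. The higher genes Gata4, Gata6, Sox17, Tfap2c and Snai2 had no window. These small counts are therefore partly set by the filter and the windows at hand, and they were not compared by a test. With loops of up to 12 bases, 12 of the 21 genes had a motif against 47.4% of all tested genes. By the G4Hunter score, which rates G-richness and G-skew in windows of 25 bases, 15 of the 21 reached 1.5 against 62.3% of all genes. Both Krt8 and Krt18 reached it, so the keratin genes differed by the motif and not by this score. These matches describe letters in the window and say nothing of whether a G4 forms there.

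To ask whether the lineage markers moved with PhenDC3, the 6 RNA-seq libraries were compared with the quasi-likelihood test of edgeR, and p-values were adjusted over all 13972 genes. Of the 27 markers tested, 12 were higher and 1 was lower with PhenDC3 at an adjusted p of at most 0.05. Over all genes tested, 18% were higher and 18.7% lower, and the median log2 fold change was 0.01, against 0.60 for the 27 markers. By lineage, 5 of 9 primitive endoderm, 4 of 7 trophectoderm, 1 of 5 mesendoderm and 2 of 6 neural markers were higher, and the 1 lower gene, Pax6, was neural. In the other 3 groups DESeq2 called no marker lower either, and an unadjusted p under 0.05 was given to no lower marker of primitive endoderm or mesendoderm and to 1 of trophectoderm. The median log2 fold changes were 0.85 for primitive endoderm, 0.99 for trophectoderm, 0.45 for mesendoderm and 0.28 for neural markers. Ranges of the 3 control and 3 PhenDC3 libraries did not overlap for 13 markers that were higher and 3 that were lower, where the same held for 25% and 25.6% of all genes tested. The filter on low counts asked for enough reads in 3 of the 6 libraries. Gata3, Gsc and Snai2 had them in all 3 PhenDC3 libraries but in only 1, 0 and 2 control libraries, respectively. Their control libraries alone would not have let these genes be tested, which favours a call of higher. With no filter Gata3 and Gsc were still called, and Snai2 was not.

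**Figure D1:**
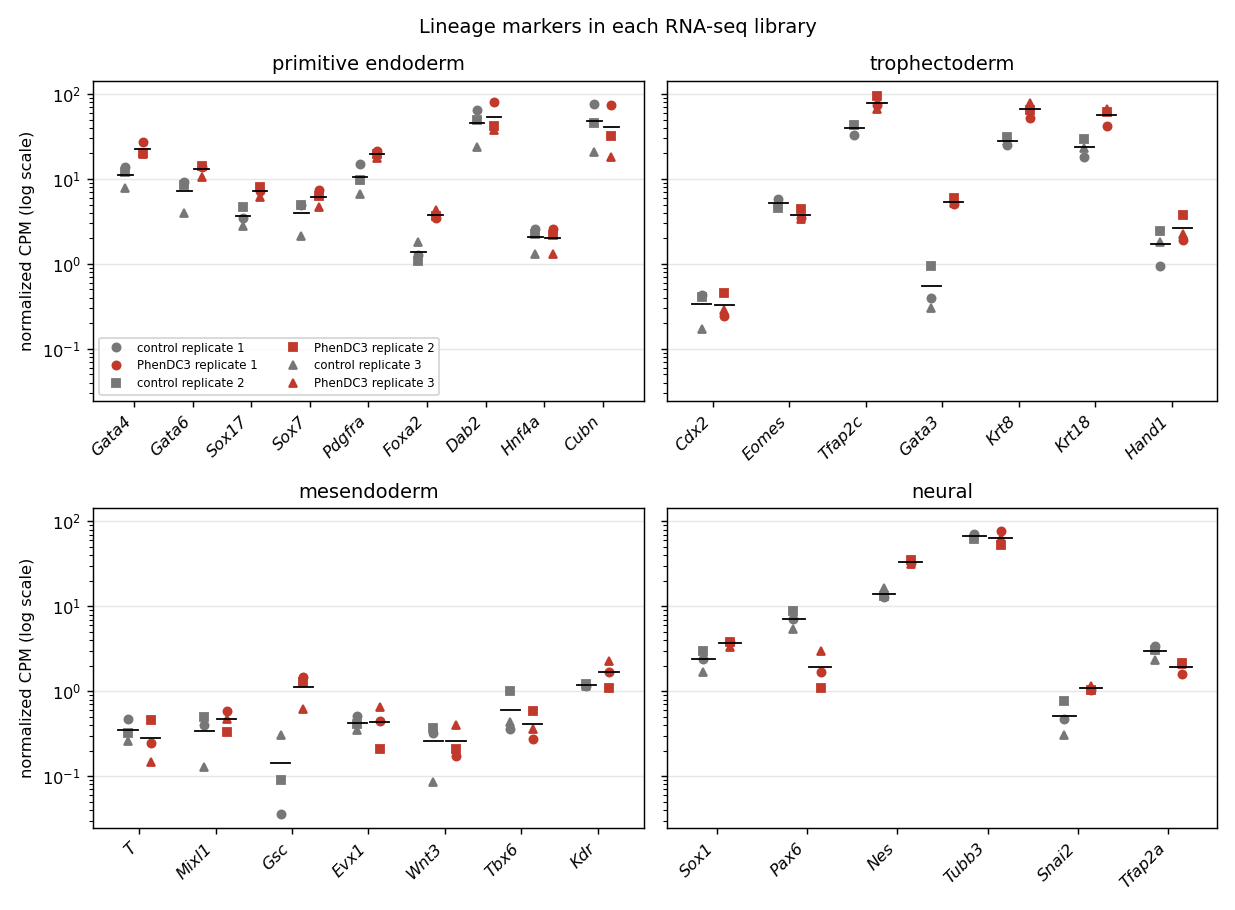
Level of each of the 29 markers above the count minimum in each RNA-seq library, in normalized CPM on a log axis, with control in grey, PhenDC3 in red, marker shapes for replicate numbers and black bars for the group means. The groups are far apart for Gata3 and Gsc, PhenDC3 lies below control for Pax6, and the points of Dab2 and Cubn spread widely within each condition.

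**Figure D2:**
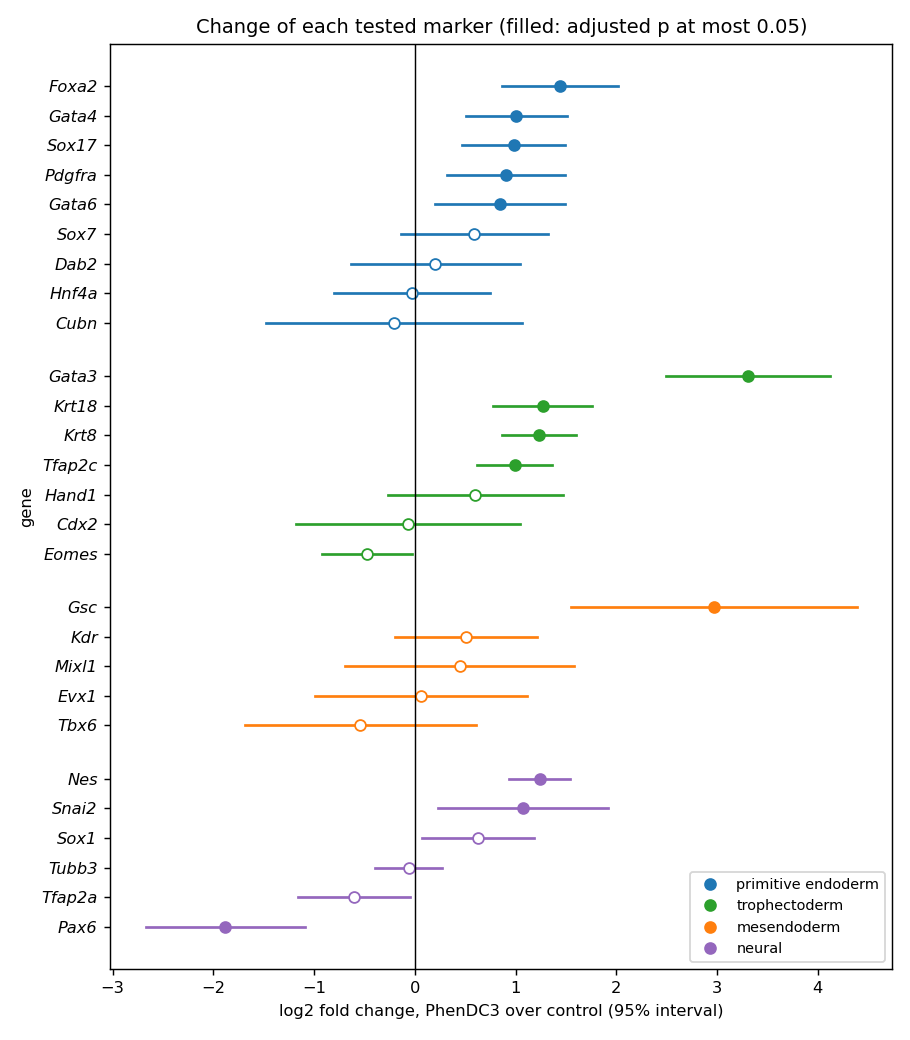
Log2 fold change of PhenDC3 over control for the 27 tested markers, by lineage, with 95% confidence intervals from the fit across all genes and filled points for an adjusted p of at most 0.05. The filled points lie right of 0 for 12 genes and left of it for Pax6, and the widest interval is that of Gsc, from 1.56 to 4.39.

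Primitive endoderm is specified by Gata6 and Gata4, zinc finger factors that act at the top of its network. Gata6 stood at 9.19, 8.43 and 3.98 CPM in control libraries 1, 2 and 3 and at 14.0, 14.3 and 10.7 CPM in PhenDC3 libraries 1, 2 and 3. The PhenDC3 values were all above the control values, by a log2 fold change of 0.85 ± 0.28 (SE, n = 3 against 3; edgeR, adjusted p = 0.0435). The call was lost when any 1 PhenDC3 library was left out, with log2 fold changes of 0.79, 0.78 and 0.97 without PhenDC3 replicate 1, 2 and 3. Gata4 was measured at 13.7, 11.9 and 7.78 CPM in control and at 27.5, 20.3 and 19.5 CPM with PhenDC3. Its ranges were also apart, with a log2 fold change of 1.01 ± 0.22 (adjusted p = 0.00788).

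Sox17 and Sox7, related SOX factors that act after the GATA factors, gave different calls. Sox17 counted 3.48, 4.65 and 2.77 CPM in control and 7.28, 8.11 and 6.10 CPM with PhenDC3, a log2 fold change of 0.98 ± 0.23 (adjusted p = 0.00959). Sox7 counted 5.00, 4.97 and 2.12 CPM against 7.35, 6.23 and 4.65 CPM, and here PhenDC3 replicate 3 lay below control replicates 1 and 2. Its log2 fold change of 0.59 ± 0.32 did not pass the test (adjusted p = 0.18), and whether Sox17 and Sox7 differed from each other was not tested. Foxa2, a forkhead factor of visceral and definitive endoderm, was low in control at 1.27, 1.09 and 1.82 CPM and reached 3.43, 3.64 and 4.28 CPM with PhenDC3. It had the largest change of the 9 tested primitive endoderm markers, with a log2 fold change of 1.44 ± 0.25 (adjusted p = 0.00273) and a fold of 2.71. Pdgfra, a receptor for platelet-derived growth factor that labels early primitive endoderm, had 15.1, 9.62 and 6.70 CPM in control and 21.6, 19.7 and 17.6 CPM with PhenDC3. The ranges did not overlap (log2 fold change 0.90 ± 0.26, adjusted p = 0.0237), but the call was lost without control replicate 2, at 0.84, and without PhenDC3 replicate 1, at 0.83. Because of Gata6 and Pdgfra, the 5 higher primitive endoderm markers became 3 when PhenDC3 replicate 1 was left out.

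Dab2, Cubn and Hnf4a did not pass the test. Dab2, an endocytic adaptor needed for the visceral endoderm, had 64.7, 50.01 and 24.0 CPM in control and 80.3, 41.8 and 37.9 CPM with PhenDC3. Cubn, the cubilin receptor through which visceral endoderm takes up nutrients, had 77.3, 45.5 and 20.9 CPM in control and 74.2, 32.1 and 18.1 CPM with PhenDC3. Hnf4a, a nuclear receptor of visceral endoderm and liver, had 2.61, 2.28 and 1.30 CPM against 2.57, 2.22 and 1.31 CPM. In all 3 the ranges of the conditions overlapped, and the log2 fold changes were 0.21 for Dab2, -0.21 for Cubn and -0.03 for Hnf4a, with 95% intervals of -0.64 to 1.05, -1.48 to 1.06 and -0.80 to 0.75. In this fit the intervals of Dab2 and Cubn hold both no change and a rise as large as that of Gata4. In a fit with a term for the replicate number, the log2 fold changes were 0.23 ± 0.14 for Dab2 and -0.25 ± 0.11 for Cubn. That of Gata4 was then 1.03 ± 0.13. Afp, the fetal serum protein made by visceral endoderm and liver, had 15 reads over all 6 libraries and was dropped.

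The spread in Dab2 and Cubn followed the replicate number. In both conditions library 1 was the highest and library 3 the lowest for 6 of the 9 primitive endoderm markers, namely Gata4, Sox7, Pdgfra, Dab2, Hnf4a and Cubn. The same order was found in 2.78% of all tested genes, in none of the other tested markers, and in 4 of 18 further primitive endoderm genes described below. The order was noticed after the values were seen and carries no test. Library 1 exceeded library 3 by 3.69-fold in control and 4.09-fold with PhenDC3 for Cubn, by 2.69-fold and 2.12-fold for Dab2, and by 1.76-fold and 1.41-fold for Gata4. The levels of all 10 markers summed to 192.4, 138.7 and 71.4 CPM in control and to 238.5, 148.5 and 120.2 CPM with PhenDC3, so control library 1 lay above PhenDC3 libraries 2 and 3. Dab2 and Cubn, neither of them called, gave 64.7 and 77.3 CPM of that sum in control library 1. For each of the 5 called markers, every PhenDC3 value was above every control value. What the libraries of 1 number had in common is not stated in the labels, and the cause of the order was not tested. A fit with a term for the number, given in the closing section, also called Sox7 higher (edgeR, adjusted p = 0.00981).

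**Figure D3:**
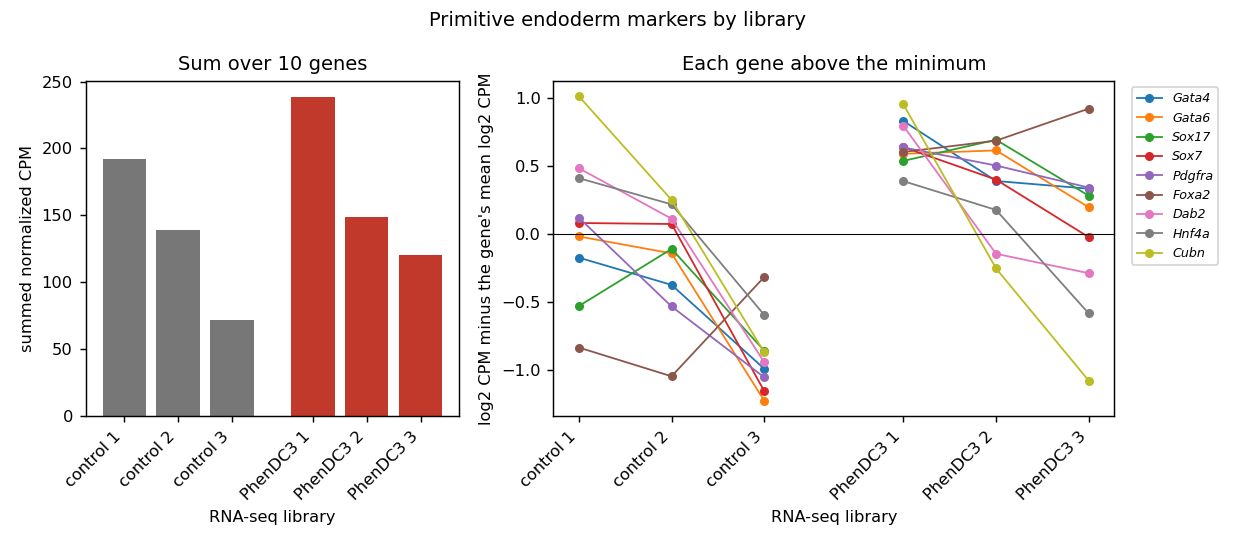
Left, summed normalized CPM of the 10 primitive endoderm markers in each RNA-seq library, with bars from 0; right, log2 CPM of each of the 9 markers above the count minimum relative to its own mean over the 6 libraries, with lines that only join the values of 1 gene. Within each condition library 1 is the highest in sum and library 3 the lowest, Foxa2 does not share that order, and Cubn has the steepest lines.

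Other genes of the lineage were examined in a list of 20, of which 18 were tested and 8 were higher and none lower (edgeR, adjusted p of at most 0.05). The shares over all genes tested were 18% higher and 18.7% lower. Of the 18, 14 had a log2 fold change above 0. An unadjusted p under 0.05 was given to 1 lower gene, Amn, named here after its values were seen. Its log2 fold change was -1.54 ± 0.55 (edgeR, adjusted p = 0.0557), from 4.64 ± 2.22 to 1.59 ± 1.08 CPM. With a term for the replicate number Amn passed, at -1.60 ± 0.25 (edgeR, adjusted p = 6.59e-05). DESeq2 called 1 gene of the list lower. The largest changes were in Fst, the activin antagonist follistatin (log2 fold change 2.50, from 2.50 ± 0.44 to 14.2 ± 3.52 CPM, mean ± SD, n = 3 each), and in Thbd, thrombomodulin, a surface protein of parietal endoderm (2.05). Col4a1 and Col4a2, the type IV collagen chains of the basement membrane that parietal endoderm lays down, followed at 1.66 and 1.56, and Col4a1 went from 219.3 ± 37.2 to 690.5 ± 127.1 CPM. All 20 genes summed to between 2143 and 2551 CPM in control and between 3398 and 4429 CPM with PhenDC3. The collagens are also made by ES cells and many other cell types. Thbd had enough reads for the filter in 2 control and 3 PhenDC3 libraries, so its control libraries alone would not have let it be tested.

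Among the trophectoderm markers, Gata3 showed the largest change of all 27 tested genes. Gata3, a zinc finger factor that acts beside Cdx2 in trophoblast specification, had 0.398, 0.957 and 0.303 CPM in control and 5.06, 5.98 and 5.23 CPM with PhenDC3. In reads this was 11, 21 and 7 against 146, 143 and 144. The log2 fold change was 3.31 ± 0.36 (adjusted p = 0.000267), a fold of 9.90, and it lay between 3.03 and 3.92 when single libraries were left out. Tfap2c, an AP-2 factor of trophoblast and germ cells that ES cells also express, had 33.0, 43.8 and 43.0 CPM in control and 74.4, 96.1 and 67.3 CPM with PhenDC3. Its log2 fold change was 0.99 ± 0.17 (adjusted p = 0.00214).

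Krt8 and Krt18 encode the keratins that pair to form the intermediate filaments of simple epithelia, trophectoderm included. Krt8 had 25.01, 31.3 and 28.02 CPM in control and 52.9, 65.3 and 79.4 CPM with PhenDC3. Krt18 had 18.1, 29.7 and 23.1 CPM in control and 42.2, 62.1 and 66.8 CPM with PhenDC3. For both, the lowest PhenDC3 library was above the highest control library, and the log2 fold changes were 1.23 ± 0.16 (adjusted p = 0.000709) and 1.27 ± 0.22 (adjusted p = 0.00239). The calls of Gata3, Tfap2c, Krt8 and Krt18 held in each of the 11 alternative analyses.

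Cdx2 and Eomes, the factors most closely tied to trophoblast identity, were not among the genes that rose. Cdx2 was near the detection limit, at 0.434, 0.410 and 0.173 CPM in control and 0.243, 0.460 and 0.290 CPM with PhenDC3, with a log2 fold change of -0.07 and an interval of -1.18 to 1.05. Eomes, a T-box factor also used in mesendoderm, had 5.79, 4.56 and 5.36 CPM in control and 3.47, 4.47 and 3.41 CPM with PhenDC3. All 3 PhenDC3 values of Eomes were below the control values, yet its log2 fold change of -0.47 ± 0.20 did not pass the test (adjusted p = 0.0908). Hand1, a bHLH factor of trophoblast giant cells, had 0.941, 2.46 and 1.82 CPM against 1.91, 3.72 and 2.25 CPM, and its ranges overlapped (log2 fold change 0.60, adjusted p = 0.249). Elf5, a factor of trophoblast stem cells, had 20 reads in all and was dropped. Of the 4 markers that rose, the keratins are made by many simple epithelia and Tfap2c by ES cells and germ cells, and Gata3 acts in several other lineages. Summed CPM over the 8 genes was 83.8, 113.2 and 101.8 in control and 180.4, 238.4 and 224.8 with PhenDC3, and the 2 ranges did not overlap. Most of that sum came from Tfap2c, Krt8 and Krt18, so it largely repeats their calls, and Cdx2, Eomes and Hand1 added little.

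In the list of 16 further trophectoderm genes, 14 were tested, 7 were higher and 1 was lower, beside 18% higher and 18.7% lower over all genes tested. Gata2, a GATA factor that works with Gata3 in trophoblast, had a log2 fold change of 2.09 ± 0.23 and went from 1.13 ± 0.21 to 4.79 ± 0.25 CPM. Krt7, a keratin of trophoblast and ductal epithelia, was at 1.36, and Dsp, the desmosomal protein desmoplakin, at 1.13. The lower gene was Lgals3, galectin-3, at -1.48, from 22.1 ± 5.13 to 7.93 ± 0.97 CPM. The number of higher genes was 4 without control replicate 1.

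All 5 mesendoderm markers that were tested had mean levels under 1 RPKM (CPM divided by the exon length in kilobases) in both conditions. Gsc, the homeobox gene goosecoid of the organizer and anterior mesendoderm, was the 1 that rose. It had 1, 2 and 7 reads in control and 42, 31 and 17 reads with PhenDC3, which is 0.0362, 0.0912 and 0.303 CPM against 1.46, 1.30 and 0.617 CPM. The log2 fold change was 2.97 ± 0.63 (adjusted p = 0.00642), and with so few control reads its 95% interval ran from 1.56 to 4.39. In the control replicate with the most Gsc reads the level was still under that of each PhenDC3 replicate.

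The other primitive streak genes gave no call. Mixl1, a homeobox factor of the streak, had 0.398, 0.501 and 0.130 CPM in control and 0.590, 0.335 and 0.472 CPM with PhenDC3 (log2 fold change 0.45, adjusted p = 0.516). Evx1, another homeobox factor of the streak, had a log2 fold change of 0.06 and Tbx6, a T-box factor of paraxial mesoderm, of -0.54, with adjusted p-values of 0.926 and 0.43. Kdr, the VEGF receptor of blood and vessel progenitors, had 1.16, 1.23 and 1.17 CPM in control and 1.70, 1.09 and 2.25 CPM with PhenDC3, with ranges that overlapped (log2 fold change 0.51, adjusted p = 0.23). T, the brachyury gene that defines the streak, had 48 reads over the 6 libraries and Wnt3, the ligand that induces the streak, had 40, so neither passed the filter. T had 0.470, 0.319 and 0.259 CPM in control and 0.243, 0.460 and 0.145 CPM with PhenDC3, and Wnt3 had 0.326, 0.365 and 0.0865 CPM against 0.173, 0.209 and 0.399 CPM. Fgf8, a growth factor of the streak, and Mesp1, a factor of early mesoderm, had 18 and 6 reads and were dropped. The 95% intervals of -0.69 to 1.58 for Mixl1 and -0.99 to 1.12 for Evx1 leave room for changes of more than 2-fold.

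Further mesendoderm genes moved both ways, with 3 higher and 3 lower among 9 tested of 19, where 18% of all genes tested were higher and 18.7% lower. Wnt3a, a Wnt ligand of the streak and tail bud, had the largest rise, at a log2 fold change of 3.12 ± 0.42 from 0.295 ± 0.18 to 2.64 ± 0.38 CPM, and Msx2, a homeobox target of BMP signalling, was at 1.74. Bmp4, the BMP ligand that induces mesoderm, fell by 2.86 on the log2 scale, from 59.3 ± 9.69 to 8.13 ± 2.63 CPM, and Lefty2, an inhibitor of Nodal, fell by 0.82. Several of these genes are active in self-renewing ES cells as well. Wnt3a reached the filter on low counts in 1 control and 3 PhenDC3 libraries. Its control libraries alone would not have let it be tested, which favours a call of higher.

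The neural markers held the one gene that fell. Pax6, a paired-box factor of neural ectoderm and eye, had 7.06, 8.89 and 5.45 CPM in control and 1.67, 1.09 and 3.01 CPM with PhenDC3. The ranges were apart, and the level in control was 3.68-fold that with PhenDC3 (log2 fold change -1.88 ± 0.35, adjusted p = 0.00348). Nes, which encodes nestin, an intermediate filament of neural progenitors and other dividing cells, went the other way, from 12.7, 13.1 and 16.3 CPM to 32.4, 35.4 and 31.7 CPM. Its log2 fold change of 1.24 ± 0.13 had the smallest standard error of the 27 tested markers (adjusted p = 0.000264).

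Sox1, the earliest marker of neural ectoderm, had 2.42, 3.01 and 1.69 CPM in control and 3.85, 3.81 and 3.34 CPM with PhenDC3. Its ranges did not overlap, but the log2 fold change of 0.63 ± 0.25 did not pass the test (adjusted p = 0.0747), and it passed without control replicate 2, at 0.82. Tubb3, a beta-tubulin of neurons, had 72.1, 62.0 and 67.9 CPM in control and 77.6, 52.7 and 63.1 CPM with PhenDC3. Its log2 fold change was -0.06 with an interval of -0.40 to 0.27, and the ranges overlapped. Hes5, Olig2, Neurog2 and Sox9, factors of neural progenitors, glia, neuronal commitment and neural crest, had 15, 3, 1 and 21 reads in all and were dropped.

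The 2 neural crest factors that could be tested differed in sign. Snai2, a zinc finger repressor of migrating crest, had 0.470, 0.775 and 0.303 CPM in control and 1.04, 1.04 and 1.16 CPM with PhenDC3 (log2 fold change 1.07 ± 0.37). Its adjusted p of 0.0495 was just under the threshold and rose above it in 9 of 11 alternative analyses, with TMM scaling, DESeq2, both other count filters and the removal of 5 of the 6 single libraries, all but control replicate 2. Tfap2a, the AP-2 factor of crest and surface ectoderm, had 3.40, 3.10 and 2.33 CPM in control and 1.60, 2.13 and 2.11 CPM with PhenDC3. All PhenDC3 values of Tfap2a were below control, with a log2 fold change of -0.60 ± 0.24 that did not pass (adjusted p = 0.0824), while without control replicate 3 it passed, at -0.75.

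Among 20 further neural genes 12 were tested, and 3 were higher and 3 lower, against 18% and 18.7% of all genes tested. Sox3, a SOX factor of neural progenitors and epiblast, fell by 3.27 and Sox11, a SOX factor of neurons and late progenitors, fell by 3.20 on the log2 scale, the latter from 31.9 ± 4.38 to 3.45 ± 2.11 CPM. Pou3f2, a POU factor of neural precursors, had a log2 fold change of 2.82, and Sox21, a SOX factor that ES cells also express, had 2.19, from 7.25 ± 0.97 to 33.0 ± 2.27 CPM. Pou3f2 was low throughout, at 0.189 ± 0.06 CPM in control and 1.39 ± 0.08 CPM with PhenDC3. It reached the filter on low counts in 0 control and 3 PhenDC3 libraries, and Sox3 in 3 control and 0 PhenDC3 libraries. Each of these genes was tested through 1 condition alone, which favours a call in its direction.

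Compared per length of exon, the markers of highest level in control were Tubb3 at 38.7 RPKM, Krt18 at 16.9, Krt8 at 15.6, Tfap2c at 13.0 and Dab2 at 9.99 RPKM. With PhenDC3 the order was Krt18 at 40.7, Tubb3 at 37.1, Krt8 at 36.5, Tfap2c at 25.8 and Dab2 at 11.5 RPKM. Tubb3 stood apart in control, where its lowest library had 35.7 RPKM and the highest of Krt18 had 21.2, while the libraries of Krt18, Krt8, Tfap2c and Dab2 overlapped from neighbour to neighbour. With PhenDC3 Krt18, Tubb3, Krt8 and Tfap2c overlapped in the same way, and Dab2, at no more than 17.3 RPKM, lay below the lowest Tfap2c library at 21.9 RPKM. Of the 27 tested genes, 14 were under 1 RPKM in control and 11 with PhenDC3. Gata3 went from 0.172 to 1.69 RPKM and Gsc from 0.122 to 0.957 RPKM, so both remained far under the keratins.

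The pluripotency genes moved at the same time. Of 12 such genes, 6 were higher and 1 was lower with PhenDC3, beside 18% and 18.7% of all genes tested. The lower gene, named here after its values were seen, was Pou5f1, which encodes the core pluripotency factor Oct4, with a log2 fold change of -0.45 ± 0.11 (adjusted p = 0.0113), from 1486 ± 117.6 to 1091 ± 43.4 CPM. These values are of RNA alone, and the authors reported that PhenDC3 left OCT4 expression unchanged. Tbx3, a T-box factor of naive ES cells that can also act in extraembryonic endoderm, had a log2 fold change of 1.82, from 113.1 ± 19.6 to 400.1 ± 44.4 CPM. Tfcp2l1, a naive pluripotency factor, was at 1.62, Prdm14, a repressor of differentiation genes, at 1.43, and Nanog, a core pluripotency factor, at 1.22, from 477.2 ± 12.7 to 1112 ± 69.1 CPM. Nanog and Gata6, which in the embryo come to mark separate cells of the inner cell mass, were both higher in RNA of the whole cultures. Whether the same cells carried both was not measured.

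To see where replication starts near these genes, the SNS-seq peak lists were searched within 2 kb of any RefSeq TSS. Of the 29 markers, 23, 16 and 10 had such a peak in the lists of control replicates 1, 2 and 3, while the PhenDC3 lists gave 24 in replicate 1 and 15 in replicate 2. Over 13949 tested genes with a TSS the shares were 67.2%, 64.6% and 39.2% in control and 64.3% and 46% with PhenDC3. The lists differed in length, with 120882, 81211 and 79377 peaks for control and 144103 and 102400 for PhenDC3. Presence in at least 2 control lists held for 18 markers (62.2% of all genes), presence in both PhenDC3 lists for 15 (41.5%), and both together for 12 (36.6%). The first count falls to between 7 and 16 when 1 control list is left out and both others are required, and the second becomes 7 with a window of 500 bases.

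The 7 markers with a peak in all 5 lists were Gata6, Sox7, Pdgfra, Tfap2c, Krt18, Sox1 and Tubb3, against 25.9% of all genes. None of the 7 mesendoderm markers was among them, and no mesendoderm marker had a peak in control replicate 3. Sox17, Dab2, Cubn and Snai2 had no peak in any list, against 17.7% of all genes. Eomes was the 1 marker with a peak in at least 2 control lists and none with PhenDC3, a pattern found in 8.27% of all genes, and no marker showed the opposite, which 2.03% of genes did. Lists differ in length and in the RNase-treated library they were called against, so a missing peak is not a measured loss of an origin.

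At the 2 genes with the largest rise, peaks lay close to the start. Gsc had peaks in 4 lists, over the window printed above, with fold enrichments of 4.93 and 4.68 in the first 2 controls and 7.49 and 7.54 with PhenDC3, and no peak in control replicate 3. Gata3 had peaks in control replicates 1 and 3, at 5.25 and 4.68, and in PhenDC3 replicate 1, at 5.77, and only the last lay over the printed window. At Krt18 the strongest peaks in control, at 15.04, 9.70 and 12.5, had their summits 1132, 1114 and 1166 bases downstream of the TSS. With PhenDC3 the strongest peaks at Krt18 were lower, at 4.22 and 6.42, and lay elsewhere, at positions -1690 and -243 from the TSS. Tubb3 had its strongest peak at about the same place in all 5 lists, 1591 to 1628 bases downstream, at 9.43, 8.01 and 10.8 in control and 2.50 and 3.90 with PhenDC3. Each condition had its own RNase-treated library in the denominator, so the fold enrichments of the conditions are set side by side here without a test.

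**Figure D4:**
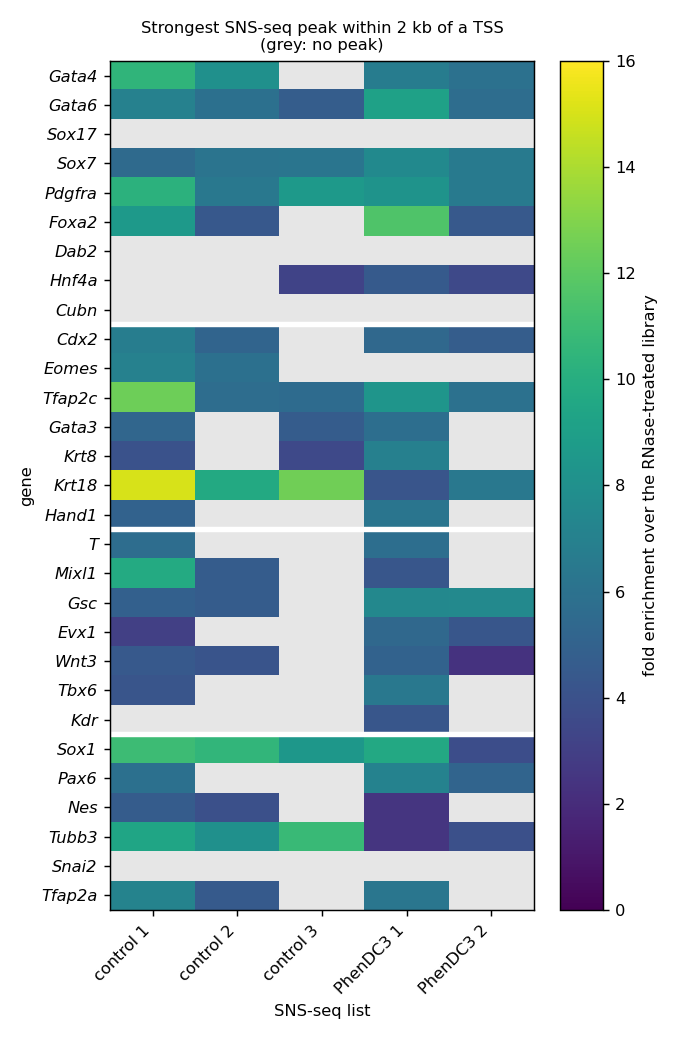
Fold enrichment over the RNase-treated library of the strongest SNS-seq peak within 2 kb of a TSS for the 29 markers in each of 5 peak lists, with grey for no peak and white lines between the lineage groups. Sox17, Dab2, Cubn and Snai2 are grey throughout, Krt18 and Tubb3 are brighter in the 3 control lists, and control replicate 3 is grey for all mesendoderm markers.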

How the data were processed

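RNA-seq of 3 control and 3 PhenDC3 samples and SNS-seq peak lists of 3 control and 2 PhenDC3 samples were used. Per the methods, RNA reads were mapped by the authors with TopHat (version 2.1.1) and Bowtie2 (version 2.2.9), and raw counts per gene from HTSeq-count (version 0.6.1p1) were deposited. Annotation and strand setting are not given in the sources used here, so reads of overlapping genes may be shared. The deposited peaks, called by the authors per replicate with MACS2 (version 2.1.0) on mm10 and kept where SICER regions overlapped, carry a fold enrichment (ratio to the RNase-treated library) and a −log10 p-value. They hold no read counts, so their depth is unknown. The authors' DESeq2 results (mean, log2 fold change, error, p-values) and scaled counts were not used.

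Counts were tested with edgeR (version 4.0.16, R version 4.3.3) using filterByExpr (count of 10), relative log expression, a robust quasi-likelihood fit and Benjamini-Hochberg adjustment, called at 0.05. The fit was tested on simulated data with 200 changed genes. It called 64.3% of the changes of 1 and 97% of the changes of 2 on the log2 scale, and 6.47% of its calls were false. No replicate libraries agreed within sampling noise. Alternatives were TMM, DESeq2 (version 1.42.0), no filter, a summed count of 30, a replicate block and single libraries left out. All tested markers were described, and of each further list at most 4 called genes with the largest change. Markers and lists were chosen with earlier results of these data known.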

Additional observations from a re-analysis of the deposited data

How the results depend on the processing

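Of the 27 tested markers, Gata4, Sox17, Foxa2, Tfap2c, Gata3, Krt8, Krt18, Gsc, Nes and Pax6 kept their call in all 11 alternatives. Under TMM scaling, DESeq2, no filter and a summed count of at least 30, 1 neural marker was higher in place of 2, since Snai2 no longer passed, and DESeq2 called 1 primitive endoderm companion gene lower. Leaving out 1 RNA-seq library gave 1709 to 2689 higher and 1623 to 2727 lower genes over the whole table, 9 to 12 higher and 1 to 2 lower markers, 3 to 5 higher primitive endoderm, 1 to 3 higher and 1 to 2 lower neural markers, 4 to 7 higher trophectoderm companions and 0 to 2 lower primitive endoderm companions. Without 1 library the log2 fold changes of 7 uncalled genes changed sign, ranging from -0.22 to 0.52 for Dab2, -0.28 to 0.21 for Hnf4a, -0.93 to 0.32 for Cubn, -0.38 to 0.17 for Cdx2, -0.33 to 0.38 for Evx1, -0.87 to 0.021 for Tbx6 and -0.22 to 0.066 for Tubb3. Markers with a peak near the TSS in both PhenDC3 lists numbered 7 within 500 bases of a TSS and 9 with peaks above the median −log10 p. Leaving out 1 PhenDC3 list required a peak only in the remaining one, which held for 24 markers in replicate 1 and 15 in replicate 2. Markers with a peak in at least 2 control lists numbered 7 to 16 without 1 control list. Of the values that answer a comparison 208 stayed and 27 moved by over 1.5 times. Markers under 1 RPKM rest on few reads, which limits what can be said of those not called.

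The replicate numbers were not taken to pair the samples, since the criterion used was a correlation of at least 0.1 at every number. Deviations of same-numbered control and PhenDC3 libraries from their group means correlated at 0.0983, 0.627 and 0.486 for numbers 1, 2 and 3. Number 1 thus fell just short. Every sample correlated best with its own number, and differently numbered libraries reached 0.0892 at most. The sample names in the counts also list the control and PhenDC3 samples of each number next to each other. Whether they were paired is not stated, and the main fit leaves the numbers out. A fit with the replicate block, a term for the replicate number, called 3797 genes higher and 3692 lower (27.2% and 26.4% of all). It called 15 markers higher and 3 lower, among them 1 trophectoderm and 2 neural markers lower. Of the primitive endoderm companions it called 10 higher and 2 lower, the latter Amn and Rhox5. Sox7, Eomes, Hand1, Sox1 and Tfap2a passed with the block and not in the fit without it on all 6 libraries, and of these Sox1 and Tfap2a also passed without 1 control library.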
